A study of Mus musculus with 45 samples.

Results

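The neurotrophins and the activity-linked peptides described here are 7 genes, taken by symbol from the unfiltered tables of normalized counts: the ligands Bdnf and Ntf3, the receptors Ntrk2, Ntrk3 and Ngfr, and the secreted proteins Vgf and Nptx2. All 7 were among the 49922 genes of the tables, and their filter status was read from the tables filtered with CLEAR, a method that keeps a gene in a low-input library only where its reads cover the transcript well enough to be trusted. Neural stem cells (NSCs) and intermediate progenitor cells (IPCs) were sorted from the dentate gyrus (DG) of mice 6 to 9 weeks old that carry GFP under Nestin regulatory elements, as GFP+ GLAST+ and GFP+ GLAST- cells after removal of O1+, O4+, CD31+, CD45+ and CD11b+ cells, and whole DG of other mice was sequenced beside them. Injured mice were killed 4 h after lateral fluid percussion injury (LFPI), a fluid pulse onto the dura, and their NSCs, IPCs and whole DG were set against those of sham mice, ipsilateral side in each case. NSCs and IPCs of LFPI mice 1 to 3 were compared with NSCs of sham mice 4 and 6 and IPCs of sham mice 4 to 6, and whole DG of LFPI mice 7 to 9 with whole DG of sham mice 10 to 12. NSCs and IPCs of untreated mice 1 to 3, with 3 libraries per mouse and population averaged by mouse, were compared with whole DG of untreated mice 4 to 6. The untreated mice are numbered apart from those of the LFPI experiment. Every mouse was C57Bl6J by the labels, which also call the whole DG mice Nestin-GFP, whereas the study's text calls the whole DG mice of the untreated set wild type.

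Neurotrophins are secreted growth factors that neurons release as precursors or mature proteins. Brain-derived neurotrophic factor, from Bdnf, binds the tyrosine kinase receptor TrkB, from Ntrk2, and neurotrophin 3, from Ntf3, binds TrkC, from Ntrk3, while the shared receptor p75NTR, from Ngfr, binds all of them and prefers precursors. Ntrk2 and Ntrk3 also give truncated receptors without the kinase, and truncated TrkB is the main form in astrocytes. Bdnf, Vgf (a granin-like precursor of secreted peptides) and Nptx2 (a pentraxin that gathers AMPA receptors at excitatory synapses) are switched on by neuronal activity in granule neurons, and BDNF acts on the survival and dendrites of adult-born granule neurons.

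The sorted libraries held 9604877 to 21598519 reads in genes and those of whole DG 9292264 to 14837110. Sorted LFPI libraries were deeper (15367572 to 21598519 reads) than sorted sham libraries (9604877 to 13081689 reads), and the heading names place them on other lanes, so that depth, lane and injury cannot be told apart in sorted cells. Whole DG libraries of LFPI and sham mice carry a single lane mark, with 9292264 to 13326754 reads after LFPI and 11131437 to 11464763 in sham. Sorted cells and whole DG also differed in kit and input. The cDNA of sorted cells was amplified from a cell lysate with SMART-Seq HT, and whole DG was made from purified RNA with a directional NEBNext kit. By the study's text, sorted cells were also dissociated with enzymes, stained and sorted, steps it does not give for whole DG. None of these differences can be told apart from cell type. Although CD31+ cells were removed, the sorted material held endothelial transcripts (the 5 markers summed to 9293 to 53538 normalized counts per mouse in sorted cells, 762 to 2434 in whole DG) and pericyte transcripts (17349 to 78879 and 1185 to 2080). Summed over 8 granule neuron markers, sorted cells held 3186 to 7995 normalized counts per mouse and whole DG 111027 to 166690, and none of the 8 was at 0 in any group. In untreated mice Slc1a3, which encodes GLAST, was at 5655 to 11395 in NSCs and 6376 to 9324 in IPCs, although IPCs were sorted as GLAST- cells. IPC mouse 2 had 1 library, technical replicate 2, with a CLEAR value for 6110 genes, against a median of 10300. Among sham whole DG, mouse 10 stood closer to the LFPI mice than mice 11 and 12 did for Arc, Egr1 and Nptx2, and the LFPI results are given with and without it as part of leaving out each mouse in turn. Because it stands apart in the very genes under test, p-values without it depend on the outcome and are a description, not support for a response. The 2 experiments were scaled separately, so levels are compared only within each.

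The Bdnf gene (GRCm38 chr2:109674700-109727007, plus strand) has several promoters, and its activity-driven promoters are the best known regulatory sequences of the group, so the start sites with a motif match are shown. RefSeq lists promoter windows of 250 bases before to 50 bases after a start site (GRCm38.p6) for 4 of the 7 genes, 11 windows in all, 7 of them for Bdnf, 2 for Ntf3 and 1 each for Ntrk2 and Ngfr. Ntrk3, Vgf and Nptx2 were not matched there. Searched on both strands were the cAMP response element TGACGTCA, its core TGACG (which lies within the full element), the AP-1 site TGANTCA and the Egr site GCGNGGGCG. Among all 32851 windows of the same length these letters stood in 1.79%, 20.8%, 7.81% and 5.55%. The 250 bases before Bdnf start sites 2 and 3 (chr2:109676782-109677031 and chr2:109692186-109692435, plus strand) are given with the match in capitals, an AP-1 site starting at -152 in the first of these and the core TGACG of the cAMP response element, read on the minus strand and starting at -35, in the other.
Bdnf start site 2: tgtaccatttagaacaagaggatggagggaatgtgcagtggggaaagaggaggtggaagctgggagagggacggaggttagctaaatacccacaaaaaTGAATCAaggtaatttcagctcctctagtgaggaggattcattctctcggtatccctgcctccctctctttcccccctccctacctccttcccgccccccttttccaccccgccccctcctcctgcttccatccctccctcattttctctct
Bdnf start site 3: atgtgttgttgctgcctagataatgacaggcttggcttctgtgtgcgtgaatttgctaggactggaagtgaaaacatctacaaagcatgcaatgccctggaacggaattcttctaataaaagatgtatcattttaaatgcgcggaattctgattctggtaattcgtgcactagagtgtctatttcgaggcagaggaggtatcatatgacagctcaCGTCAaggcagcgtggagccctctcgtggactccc
The other 9 windows of Bdnf, Ntf3, Ntrk2 and Ngfr held none of these letters. The first Ntf3 start site (chr6:126166745-126166994, minus strand) is shown beside them because Ntf3 was the gene of the group that was lower after LFPI.
Ntf3 start site 1: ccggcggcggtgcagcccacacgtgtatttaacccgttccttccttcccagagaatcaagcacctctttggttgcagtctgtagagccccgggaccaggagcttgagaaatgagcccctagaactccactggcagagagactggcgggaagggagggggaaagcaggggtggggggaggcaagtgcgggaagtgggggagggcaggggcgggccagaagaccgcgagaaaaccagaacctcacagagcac
The counts are per gene, so they do not say which Bdnf start site was used in any sample.

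**Figure D1:**
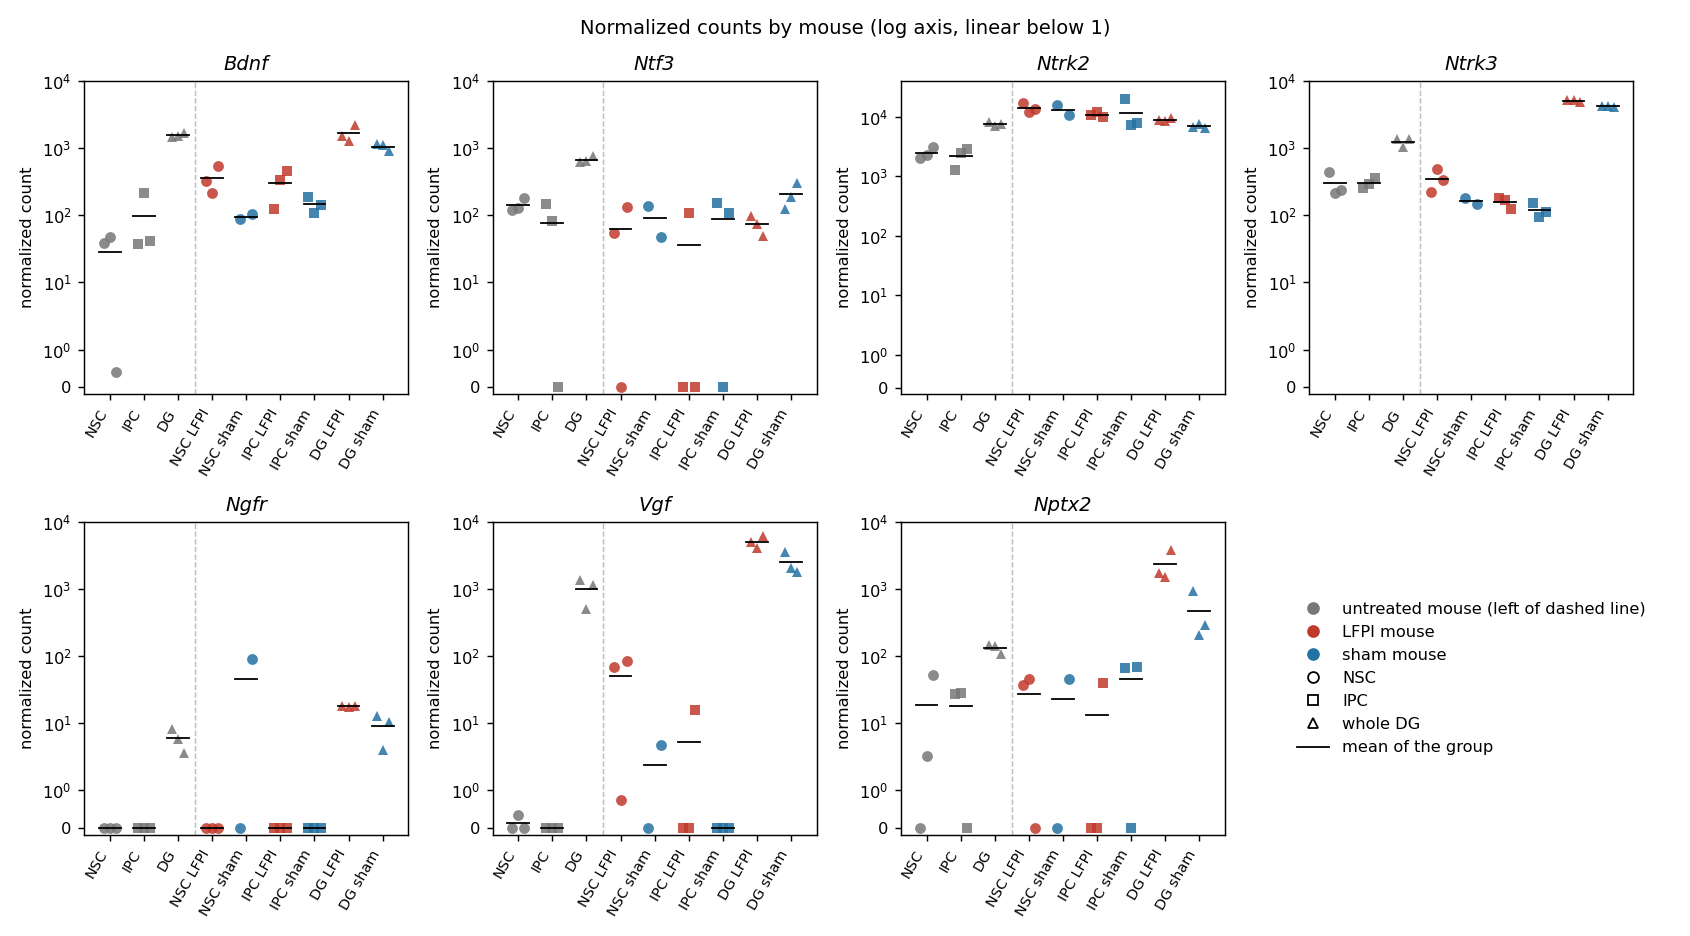
Normalized counts of the 7 genes (y axis, log scale that is linear below 1) in each group (x axis); each symbol is a mouse, technical replicates averaged, the bar is the group mean, and untreated mice stand left of the dashed line. Bdnf, Ntrk3, Vgf and Nptx2 were higher in whole DG than in sorted cells in both experiments, and Ntrk2 was not.

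In untreated mice the first question was which of these genes NSCs and IPCs carry beside whole DG. In bulk samples fewer cells of a type and less RNA per cell cannot be told apart, here and in every comparison that follows. Bdnf, the ligand of TrkB, was at 38.4, 47.4 and 0.399 normalized counts in NSCs of mice 1 to 3, against 1473, 1516 and 1689 in whole DG of mice 4 to 6. In IPCs of mice 1 to 3 it was at 36.9, 216 and 41.4. Each sorted value lay below each whole DG value, and Bdnf was at 0 in 4 of 9 NSC and 2 of 9 IPC libraries. With limma on log2(normalized count + 1), the log2 fold change was -6.81 ± 1.30 in NSCs (SE, adjusted p = 0.00248) and -4.47 ± 1.30 in IPCs (adjusted p = 0.0198), both over whole DG. The IPC value rested on few mice, since its adjusted p was 0.0572 to 0.0625 when any of 5 mice was left out and passed only without IPC mouse 2. The high value of IPC mouse 2 came from the library that stands apart, with 446 normalized counts and no CLEAR value for Bdnf, and without that library the log2 fold change was -4.83 (adjusted p = 0.00997).

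Ntf3, the ligand of TrkC, was found in more libraries of NSCs than Bdnf. Mice had 121 to 184 normalized counts of it in NSCs and 0 to 146 in IPCs, against 629 to 757 for whole DG, and a CLEAR value in 7 of 9 NSC and 4 of 9 IPC libraries, where Bdnf had a CLEAR value in 0 and 3. The groups did not overlap with whole DG, but the log2 fold change of NSCs over whole DG, -2.24 ± 1.58, did not pass (adjusted p = 0.267). It did pass with the spread of the 2 groups alone (adjusted p = 0.000397). That of IPCs, -4.88 ± 1.58, passed (adjusted p = 0.0312), and it was lost with edgeR (adjusted p = 0.146), with the spread of the 2 groups alone (0.0667), on rescaling to 1 total (0.0565) and when any whole DG mouse was left out (0.0791 to 0.0861). IPC mouse 3 was at 0 in all of its libraries, and without it the log2 fold change was -2.62 (adjusted p = 0.000816).

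Both kinase receptors were also lower in untreated sorted cells. Ntrk2 had 2024 to 3051 normalized counts by mouse for NSCs and 1271 to 2848 for IPCs, against 6935 to 8113 for whole DG, with a CLEAR value in every library. On the log2 scale Ntrk2 differed from whole DG by -1.63 ± 0.29 for NSCs (limma, adjusted p = 0.00161) and by -1.86 ± 0.29 for IPCs (adjusted p = 0.000847). Ntrk3 was at 212 to 448 in NSCs, 259 to 362 in IPCs and 1032 to 1374 in whole DG, with log2 fold changes of -2.13 ± 0.31 and -2.05 ± 0.31 (adjusted p = 0.000516 and 0.000713). Ngfr, the p75 receptor, had no read in any of the 18 sorted libraries and 3.64 to 8.24 normalized counts in whole DG, 15 reads in all. At 0 reads in 9 libraries a mean of up to 0.288 normalized counts in NSCs and 0.277 in IPCs (the worth of 3 reads over the group, counting error only) would have gone unseen. It was under the mean of 10 asked of tested genes.

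Vgf gave the widest gap of the 7 genes. It had 1 read in the 9 untreated NSC libraries and none in the 9 IPC libraries, and was at 504, 1154 and 1345 normalized counts in whole DG. Set against the worth of 3 reads over the group, with counting error alone, it was at least 3607-fold lower in IPCs. That bound does not cover the loss of a gene from a whole low-input library. Bdnf, for example, had 0, 168 and 0 reads in the NSC libraries of untreated mouse 1. The log2 fold change was -9.71 ± 0.56 in NSCs (limma, adjusted p = 4.14e-06). Nptx2 was above 0 in 2 of 9 NSC and 3 of 9 IPC libraries, with mouse means of 0 to 52.0 and 0 to 28.0 normalized counts and 107 to 145 in whole DG. Its log2 fold changes of -4.43 ± 1.65 and -3.81 ± 1.66 did not pass (adjusted p = 0.0522 and 0.0859). With a pseudocount of 10 both passed (adjusted p = 0.0114 and 0.0186), and in NSCs also under a minimum mean of 50 (0.0433), with the spread of the 2 groups alone (0.0333) and without NSC mouse 3 (0.0138).

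In all, 4 of the 6 genes tested in NSCs and 5 of the 6 in IPCs passed as lower than in whole DG, and 0 as higher. Of all genes tested, 34.2% passed as lower and 16% as higher in NSCs, and 34.8% and 14.9% in IPCs. The 6 genes had medians of -3.33 (NSCs) and -4.14 (IPCs) on the log2 scale, against -0.68 and -0.72 over all genes tested. These shares and medians depended on the scaling, since 2849 genes passed as higher and 6095 as lower in NSCs (2638 and 6171 in IPCs), but 4916 and 4054 (4841 and 3961) after rescaling to 1 total, where the median of all genes was 0.06 and 0.02, and 4073 and 3876 (4011 and 3730) with edgeR. Under both, Bdnf, Ntrk2, Ntrk3 and Vgf still passed as lower in NSCs and in IPCs, and Ntf3 did not in IPCs. The granule neuron markers moved the same way, with 8 of 8 lower in NSCs and 7 of 8 in IPCs. Their part in the result was not tested.

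NSCs and IPCs did not differ detectably in these genes. Of the 5 genes tested between untreated NSCs and IPCs none passed, with limma adjusted p values of 0.377 to 0.930, while 2.09% of all genes did. The largest differences were for Ntf3 (log2 2.64 ± 1.55, higher in NSCs) and Bdnf (log2 -2.34 ± 1.27), and the groups overlapped for each of the 5 genes. With the mouse as a block, since both populations came from the same mice, the adjusted p values were 0.546 for Ntf3 and 0.463 for Bdnf.

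In sham mice of the LFPI experiment the same contrasts gave another picture for Ntrk2. NSCs had 10848 and 15625 normalized counts of it and IPCs 7354, 7912 and 19837, against 6596 to 7719 for whole DG. Its log2 fold changes over whole DG were 0.90 ± 0.42 in NSCs (limma, adjusted p = 0.124) and 0.59 ± 0.38 in IPCs (adjusted p = 0.234), where those of untreated mice were -1.63 and -1.86. The difference between the experiments was not tested, since their tables were scaled separately. Ntrk3 kept its direction, with 146 and 183 normalized counts in sham NSCs, 94.0 to 151 in sham IPCs and 4090 to 4268 in sham whole DG. Its log2 fold changes were -4.67 ± 0.27 (adjusted p = 9.86e-05) and -5.16 ± 0.24 (adjusted p = 4.58e-05).

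The summed astrocyte markers moved with Ntrk2. The sum of Aqp4, Aldoc, Gja1, S100b and Slc1a2 was 19770 to 44788 normalized counts in untreated sorted cells and 56352 to 68872 in untreated whole DG, but 113622 to 275272 in sham sorted cells and 47449 to 50365 in sham whole DG. Of the 5 markers, 3 passed as higher and 0 as lower in sham NSCs than in sham whole DG. By mouse, 3 were higher and 2 lower there without overlap, so not every marker moved with the sum. In sham IPCs 3 were higher and 0 lower without overlap. In untreated NSCs 0 passed as higher and 4 as lower. None of the 5 was at 0 in any group. Within sham IPCs the mouse with 19837 counts of Ntrk2, mouse 4, also had the highest astrocyte sum, 275272, against 148681 and 113622 in mice 5 and 6. The part of astrocyte RNA in the Ntrk2 levels was not tested.

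**Figure D2:**
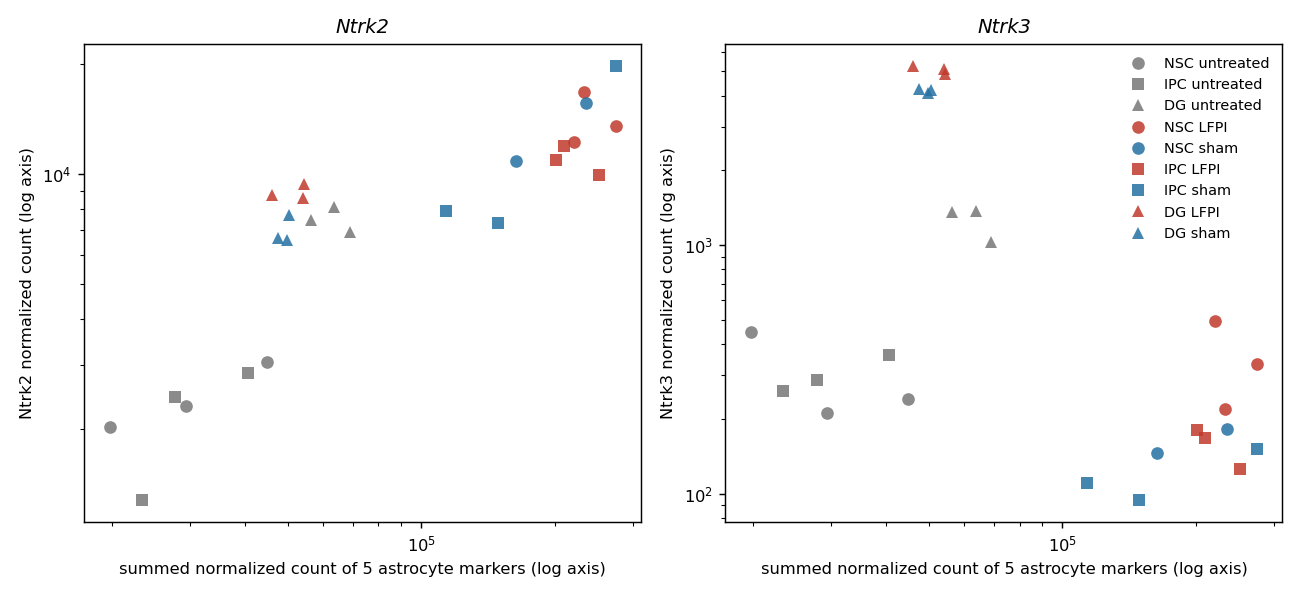
Normalized counts of Ntrk2 (left) and Ntrk3 (right) against the summed normalized counts of 5 astrocyte markers, both on log axes; each point is 1 mouse, with colour for treatment and shape for population, and the 2 experiments are scaled separately. Sorted cells of the LFPI experiment lie far right, at 113622 to 275272, and hold 7354 to 19837 counts of Ntrk2 but 94.0 to 497 of Ntrk3.

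Of the other genes in sham mice, Bdnf was at 86.9 and 103 normalized counts in NSCs and 109 to 189 in IPCs, against 914 to 1147 in whole DG, and had a CLEAR value in every sorted library. Both differences passed (log2 -3.46 ± 0.33, adjusted p = 0.000253 in NSCs, and -2.87 ± 0.30, adjusted p = 0.000268 in IPCs). Vgf was at 0 and 4.68 in NSCs and 0 in all IPC libraries, against 1811 to 3546 in whole DG. With counting error alone that was at least 2227-fold lower in IPCs, a bound that does not cover the loss of a gene from a library. Nptx2 was at 0 and 45.8 in NSCs and 0 to 68.3 in IPCs, against 208 to 920 in whole DG, and did not pass (adjusted p = 0.0762 and 0.106). Ntf3 did not pass either (adjusted p = 0.652 and 0.228), since its whole DG level, 125 to 307, overlapped with the 46.8 to 135 of NSCs and the 0 to 153 of IPCs. In all, 3 of 7 genes tested passed as lower in sham NSCs and 3 of 6 in sham IPCs, where 26.7% and 30% of all genes did, and 0 as higher, where 17.5% and 18.9% did. Between sham NSCs and IPCs 0 of 6 passed, against 0.0819% of all genes tested.

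Ngfr appeared in a single sorted library. NSCs of sham mouse 6 held 97 reads of it, 90.7 normalized counts with a CLEAR value, and the other 28 sorted libraries of both experiments held none. In that library the 5 fibroblast markers summed to 32456 normalized counts, against 79912 in NSCs of sham mouse 4 and 80337 in IPCs of sham mouse 4, where Ngfr was at 0. Whole DG held 17.2 to 18.03 normalized counts after LFPI and 4.01 to 12.6 in sham.

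The response to LFPI was asked next, and in whole DG all 7 genes had groups that did not overlap, 6 higher and 1 lower. Over all genes tested, 9.03% were higher and 13.9% lower without overlap. None of the 7 passed limma (adjusted p = 0.128 to 0.265), nor did any gene tested (0% of 17434, with 3468 at an unadjusted p under 0.05), and edgeR called 0 as well, with 3527 at an unadjusted p under 0.05. DESeq2 on the recovered reads called 3 of them higher and 1 lower, where it called 2.4% and 1.51% of all genes tested. The values therefore come first and the tests after them.

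Of the 7 genes Nptx2 had the largest ratio. It was at 1695, 1501 and 3785 normalized counts in LFPI mice 7 to 9, against 920, 208 and 285 in sham mice 10 to 12. Sham mouse 10 was closer to the LFPI mice than to the other sham mice on a ratio scale. The means were 2327 ± 1266 after LFPI and 471 ± 390 in sham (SD, n = 3 each), a ratio of 4.94, and the log2 fold change was 2.48 ± 0.52 with limma (adjusted p = 0.128) and 2.34 with DESeq2 (adjusted p = 0.0485). Without sham mouse 10 it was 3.12 ± 0.34 (limma, adjusted p = 0.00136).

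Vgf was at 4972, 4017 and 6086 normalized counts after LFPI, against 3546, 2074 and 1811 in sham. The means, 5025 ± 1035 and 2477 ± 935, stood at a ratio of 2.03, and again sham mouse 10 was the highest sham mouse. The log2 fold change was 1.06 ± 0.24 with limma (adjusted p = 0.128), passed with DESeq2 (adjusted p = 0.00149) and was 1.35 ± 0.17 without sham mouse 10 (limma, adjusted p = 0.00232).

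Bdnf was at 1541, 1262 and 2251 normalized counts after LFPI, against 1147, 1101 and 914 in sham. The lowest LFPI mouse was only slightly above the highest sham mouse. The means were 1685 ± 510 and 1054 ± 123, a ratio of 1.60, and the log2 fold change was 0.64 ± 0.20 with limma (adjusted p = 0.157) and 0.71 with DESeq2 (adjusted p = 0.0245). Without sham mouse 10 it was 0.70 ± 0.22 and did not pass (limma, adjusted p = 0.0797).

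Ntf3 was the only one of the 7 genes that was lower. It was at 96.7, 75.4 and 49.97 normalized counts after LFPI, against 125, 188 and 307 in sham. The mouse with the highest Bdnf, Vgf and Nptx2, LFPI mouse 9, had the lowest Ntf3, and sham mouse 10 the lowest of the sham mice. The means of 74.0 ± 23.4 and 207 ± 92.3 stood at a ratio of 0.358, with a log2 fold change of -1.42 ± 0.34 (limma, adjusted p = 0.129) that passed with DESeq2 (adjusted p = 0.00274) and without sham mouse 10 (limma, log2 -1.74 ± 0.31, adjusted p = 0.0118). The 3 LFPI libraries held 158 reads of Ntf3 and the 3 sham libraries 463.

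The kinase receptors had ratios nearer to 1. Ntrk2 was at 8761, 8603 and 9391 normalized counts after LFPI, against 6693, 7719 and 6596 in sham, a ratio of 1.27. Ntrk3 was at 5275, 5139 and 4881, against 4268, 4208 and 4090, a ratio of 1.22. The groups overlapped for neither gene, but neither passed with limma (adjusted p = 0.147 and 0.163), with DESeq2 (0.0649 and 0.102) or without sham mouse 10 (limma, 0.116 and 0.111). Ngfr was at 18.03, 17.2 and 17.8 normalized counts, against 12.6, 4.01 and 10.5, a ratio of 1.96, and rested on 39 reads after LFPI and 20 in sham (limma, adjusted p = 0.265).

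Without sham mouse 10, 4.63% of all genes tested passed as higher and 3.02% as lower, and of the 7 genes Vgf and Nptx2 were among the higher and Ntf3 among the lower. These calls rest on the removal of the sham mouse nearest to the LFPI mice in such genes, and leaving out any other whole DG mouse called 0 genes. Summed granule neuron markers were 111027 to 121866 normalized counts after LFPI and 120538 to 139396 in sham, and summed interneuron markers 11029 to 11581 and 8986 to 10198. Of 6 oligodendroglial and 5 microglial markers, 3 and 4 were lower after LFPI without overlap between the groups, as were 4 of 7 progenitor and neuroblast and 3 of 8 radial glia-like stem cell markers, against 13.9% of all genes. The part of these shifts in the response of the 7 genes was not tested.

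**Figure D3:**
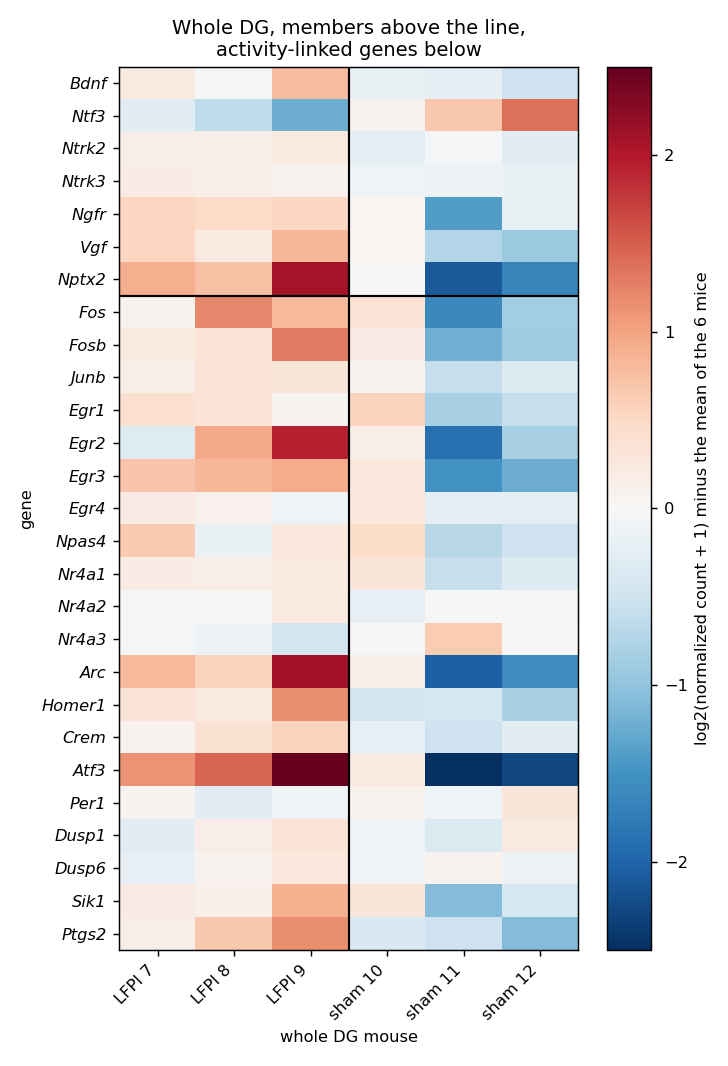
Each cell is log2(normalized count + 1) of a gene (rows) in a whole DG mouse (columns) minus the mean of the 6 mice; the 7 genes stand above the line and 20 activity-linked transcription factors and synaptic genes below it, with the 3 LFPI mice on the left. Sham mouse 10 lies between the LFPI mice and sham mice 11 and 12 for Nptx2, Vgf, Arc and Egr3, and Ntf3 runs the other way.

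The wider activity program was read from lists of other genes. Of 20 activity-linked transcription factors and synaptic genes, 18 were above 0 in log2 fold change in whole DG after LFPI, with a median of 0.62 against -0.04 over all genes tested. Of these, 9 were higher and 1 lower without overlap between the groups, where 9.03% and 13.9% of all genes were. DESeq2 called Crem, Fosb, Homer1, Junb and Ptgs2, 5 higher and 0 lower, where it called 2.4% and 1.51% of all genes, and limma called 0 of the list. Examples chosen after their values were seen are Arc, an effector at synapses, and Homer1, a scaffold of glutamate receptors. Arc was at 3196, 2714 and 7819 normalized counts after LFPI, against 2042, 446 and 613 in sham. Homer1 was at 2131, 2004 and 3826, against 1238, 1263 and 977, and for it sham mouse 10 did not stand apart. Egr1, an immediate early factor, was at 967, 936 and 775 after LFPI and at 1103 in sham mouse 10, against 421 and 492 in the other sham mice.

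Of 20 other activity-linked peptides and pentraxins, 15 were above 0, with a median log2 fold change of 0.45, and 7 were higher and 0 lower without overlap (9.03% and 13.9% of all genes). DESeq2 called 6 higher (Nptx1, Nptxr, Npy, Nrn1, Penk and Scg2) and 0 lower (2.4% and 1.51% of all genes), and limma 0. Nptx1 and Nptxr, the pentraxin partners of Nptx2, had ratios of 1.54 and 1.51, below the 4.94 of Nptx2. Of 13 processing and secretion genes, with a median of 0.23, DESeq2 called Furin, Pam and Pcsk1, which cleave and amidate precursors, as higher, against the same 2.4% of all genes. The neurotrophin ligands, receptors and co-receptors outside the 7 genes had a median of 0.02 and the receptor signalling genes one of 0.07. In these lists DESeq2 called 0 of 13 and 1 of 22, Grb2, an adaptor of receptor kinases.

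In sorted cells none of these responses passed. In NSCs Bdnf was at 324, 215 and 543 normalized counts in LFPI mice 1 to 3, against 86.9 and 103 in sham mice 4 and 6. The groups did not overlap, the ratio was 3.80, and the log2 fold change of 1.82 ± 0.58 did not pass (limma, unadjusted p = 0.0176, adjusted p = 0.944). Ntrk3 in NSCs was at 219, 497 and 334, against 183 and 146, again without overlap (log2 1.02 ± 0.53, adjusted p = 0.944). Vgf was at 68.0, 0.727 and 83.3 in NSCs after LFPI, against 0 and 4.68 in sham, and the groups overlapped (adjusted p = 0.944). In IPCs Bdnf was at 124, 330 and 455 in LFPI mice 1 to 3, against 189, 109 and 141 in sham mice 4 to 6, where the groups overlapped (log2 0.89 ± 0.63, adjusted p = 0.915). Ntrk2 was at 12217 to 16812 in NSCs after LFPI, against 10848 and 15625 in sham, and at 9921 to 11942 in IPCs, against 7354 to 19837. Ntf3 and Nptx2 were at 0 in some library of nearly every sorted group, and no response could be read from them.

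Over all genes tested limma called 0% in NSCs and 0% in IPCs, with 743 and 752 genes at an unadjusted p under 0.05. DESeq2 called 254 of 17274 genes in NSCs (213 higher and 41 lower) and 105 of 16970 in IPCs, none of them among the 7. Of 16 other activity-linked peptides and pentraxins tested in NSCs, it called 2 higher, Gal and Tac1, and 0 lower. With limma 5 of these 16 were above 0 in log2 fold change and 11 below, with a median of -0.36 against -0.02 over all genes tested. DESeq2 called no gene of the other lists in NSCs and no list gene in IPCs. Fibroblast markers also differed, with sums of 3762 to 18701 normalized counts in NSCs after LFPI and 32456 and 79912 in sham. In IPCs the sums were 347 to 741 after LFPI and 2706 to 80337 in sham. The part of fibroblast RNA was not tested. For most of these genes the sorted libraries allow only wide limits, as the SE of 2.54 for Nptx2 in NSCs shows beside 0.52 in whole DG.

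**Figure D4:**
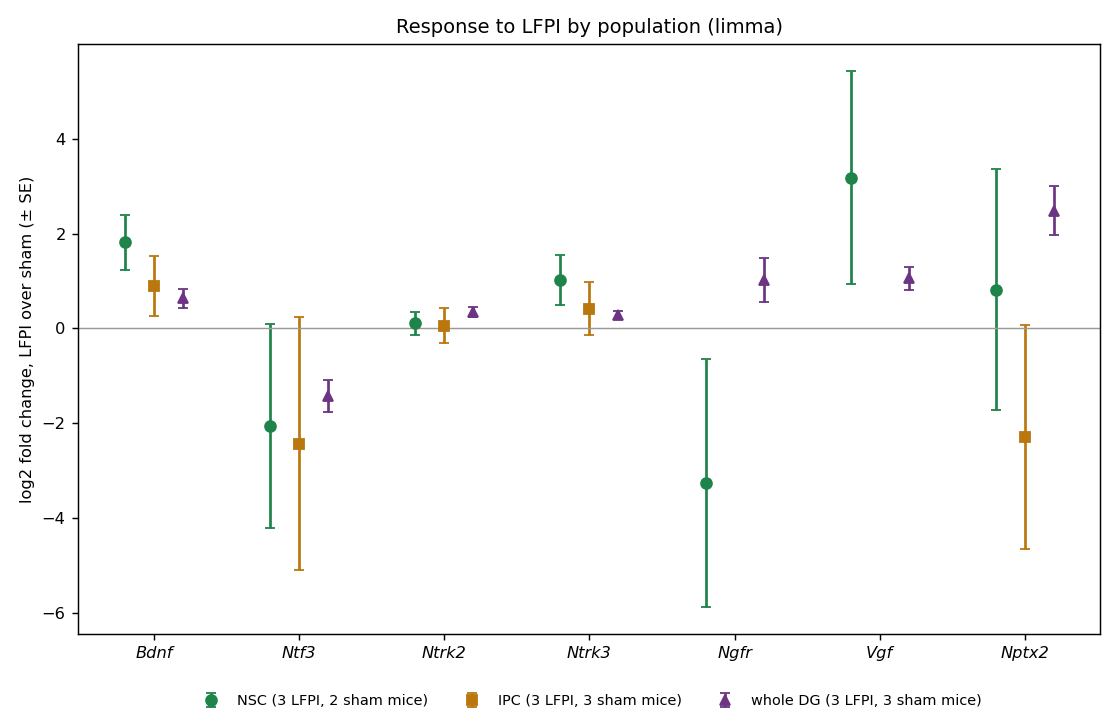
Log2 fold change of LFPI over sham (y axis, limma, bars are ± SE) for the 7 genes in NSCs, IPCs and whole DG; a gene below the mean of 10 in a population has no point. In whole DG the values run from -1.42 for Ntf3 to 2.48 for Nptx2 with the narrowest bars.

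Whether whole DG answered LFPI otherwise than the sorted cells was tested as a difference of responses. Of the 7 genes tested against NSCs and the 6 against IPCs none passed, with limma adjusted p values of 0.525 to 0.952 and 0.795 to 0.982, where 0.474% and 0.339% of all genes did. Of the other activity-linked peptides and pentraxins, 18 were tested against NSCs, and limma called 1, Tac1, with a lower response in whole DG. Against IPCs it called 0 of 18. For Nptx2 the response of whole DG exceeded that of IPCs by log2 4.76 ± 2.52 and that of NSCs by 1.66 ± 2.51. For Bdnf it fell short of that of NSCs, with a difference of -1.18 ± 0.51 (adjusted p = 0.525). The responses of NSCs and IPCs did not differ for any of 6 genes (adjusted p = 1.00 for each, 0% of all genes called), nor with the mouse as a block.

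Levels of genes within a group were set side by side per 1000 exonic bases (GENCODE M21). The exons of all isoforms were joined, from 1714 bases for Ntf3 to 30170 for Ntrk3. The isoforms in use may be shorter, so the order between genes is approximate. Vgf led in whole DG after LFPI, with 1690 ± 348 normalized counts, followed by Nptx2 at 918 ± 499 and Ntrk2 at 462 ± 21.6. Then came Bdnf at 271 ± 82.0, Ntrk3 at 169 ± 6.64, Ntf3 at 43.2 ± 13.7 and Ngfr at 5.13 ± 0.127 (SD, n = 3). The mice overlapped between Vgf and Nptx2 but not between Nptx2 and Ntrk2. In sham whole DG the order was Vgf (833 ± 314), Ntrk2 (363 ± 32.3), Nptx2 (186 ± 154), Bdnf (170 ± 19.8), Ntrk3 (139 ± 3.005), Ntf3 (120 ± 53.8) and Ngfr (2.62 ± 1.30), and the mice overlapped between Nptx2 and its neighbours Ntrk2 and Bdnf and between Ntrk3 and Ntf3. In untreated whole DG Ntf3 (395 ± 40.4) and Ntrk2 (389 ± 30.6) had the highest means and did not differ beyond their spread. Vgf (337 ± 148) had mice at 169 to 452, a range that spans both. As group means, sorted cells of every group carried Ntrk2 above the other 6 genes, at 113 to 128 in untreated and 567 to 735 in LFPI and sham cells. In untreated cells the mice overlapped with Ntf3. The lowest Ntrk2 was at 105 in NSCs and 65.9 in IPCs, and the highest Ntf3 at 107 and 85.1.

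The lists bear on the untreated cells too. Of the ligands, receptors and co-receptors outside the 7 genes, 12 were tested in untreated NSCs and IPCs, and 10 and 8 passed as lower than in whole DG and 1 and 1 as higher. For this and the next lists the shares over all genes were 34.2% lower and 16% higher in NSCs and 34.8% and 14.9% in IPCs, with the dependence on scaling given above. Among them Sort1, the sorting receptor sortilin, averaged 153 ± 25.6 normalized counts (NSCs) and 199 ± 95.2 (IPCs), against 1096 ± 79.5 for whole DG (SD, n = 3 each). Kidins220, a scaffold and substrate of Trk receptors, was at 615 ± 269 and 726 ± 156, against 4810 ± 517.

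Most receptor signalling genes that passed were lower, with 10 of 21 lower and 1 higher in NSCs and 12 lower and 1 higher in IPCs. Sos1, an exchange factor for Ras, was the higher one, at 437 ± 58.3 normalized counts for NSCs and 282 ± 18.3 for IPCs, against 121 ± 34.1 for whole DG. Sos1 did not keep this direction in sham NSCs. There 0 of the 22 receptor signalling genes tested passed as higher than in whole DG and 9 as lower, Sos1 among the 9. Of all genes tested, 17.5% passed as higher and 26.7% as lower in sham NSCs. Of 12 processing and secretion genes, 8 and 10 were lower and 1 and 1 higher. Pcsk1, a convertase of granule precursors, had no read in untreated sorted cells and 260 ± 113 normalized counts in whole DG, whereas Plat, the plasminogen activator that acts on precursors outside the cell, was higher in NSCs (5953 ± 162) and IPCs (6116 ± 1918) than in whole DG (1392 ± 112).

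Of 20 activity-linked peptides and pentraxins, 17 and 15 passed as lower and 0 and 2 as higher in NSCs and IPCs, with a median log2 fold change of -5.41 in NSCs (-6.22 with genes at 0 set to the worth of 3 reads over the group) and -5.45 in IPCs. Scg2, another granin, averaged 136 ± 47.3 normalized counts for NSCs and 97.6 ± 18.7 for IPCs, against 9316 ± 711 for whole DG. The activity-linked transcription factors were not all lower, with 9 lower and 3 higher in NSCs and 11 and 1 in IPCs. Egr4 had no read in untreated sorted cells and was at 404 ± 180 in whole DG. Fos averaged 3243 ± 1192 for NSCs and 2561 ± 949 for IPCs, against 169 ± 63.7 for whole DG. Dissociation, staining and sorting of the cells cannot be told apart from cell type in these levels.

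For each of the 7 genes the 3 genes with the most similar pattern were sought over the 17 libraries of the LFPI experiment, among 18049 genes averaging 10 or more. The libraries share their depth and the contrast of sorted cells with whole DG, so the correlations of log2(normalized count + 1) are a description. Ntrk2 was nearest to Gpm6b (Pearson r = 0.967), Cpe (0.953) and Tril (0.923), Ntrk3 to Fibcd1 (0.988), Atp2a2 (0.987) and Cntnap1 (0.987), and Vgf to Nkain2 (0.983), Gm43909 (0.967) and Cacng3 (0.966). Bdnf was nearest to Slc2a3 (0.952) and Fam169a (0.950), and Nptx2 to Nuak1 (0.962), Hsf2 (0.918) and Actr5 (0.918). For Ntf3 they were Man2a1 (0.960), Icmt (0.889) and Zbtb9 (0.877). For Ngfr, which was above 0 in 7 of the 17 libraries, they were Msln (0.996), Scara5 (0.984) and Egr2 (0.978), each highest in NSCs of sham mouse 6.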

How the data were processed

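RNA of sorted NSCs and IPCs (300 cells sorted, with part of the lysate used per library) and of whole DG was sequenced by the authors. They trimmed reads with AdapterRemoval, aligned them with HISAT2 (version 2.0.6 in the processing notes) to GRCm38p4, assigned them to GENCODE M14 genes with unstranded featureCounts and divided the counts by DESeq2 size factors; the processing notes also list CASAVA 1.8.2 and a human build. The deposited values are thus a normalized count signal, in an unfiltered table and a CLEAR-filtered table per experiment. In the filtered table of the LFPI experiment the whole DG columns hold values for all 49922 genes, so whole DG was not filtered there. Because strand was not used, a gene's reads cannot be told apart from those of any antisense gene over it.

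Whole reads were recovered from the unfiltered tables (within 0.05 of a whole number for 100% of values). The 45 labelled samples gave 38 libraries, 7 with several runs combined; 1 column matched no sample and was not used. Of 50600 rows, 678 rows with 310 repeated symbols were dropped. Libraries held 9292264 to 21598519 reads in genes, and intervals on 0 reads cover counting error only. Technical replicates were averaged by mouse, since the mouse is the replicate and p-values measure the spread between mice as labelled. Genes with a mean of at least 10 over the groups compared were tested on log2(value + 1) with limma 3.58.1 in R 4.3.3. The fit used a variance trend and Benjamini-Hochberg adjustment over all genes tested at 0.05. The log2(value + 1) scale can understate changes of low genes, and can overstate them where single mice are at or near 0. In untreated NSCs over whole DG it gave -9.71 for Vgf and -4.43 for Nptx2, where DESeq2 gave -12.93 and -2.73. For Ntf3 in untreated IPCs over whole DG it gave -4.88, where DESeq2 gave -2.84. Alternatives were pseudocounts of 0.5 and 10, no filter, a mean of at least 50, CLEAR genes only, no trend, rescaling to 1 total, edgeR 4.0.16 quasi-likelihood, DESeq2 1.42.0, a fold of log2 1, other pools of the spread, the mouse as a block, and each mouse left out. NSCs and IPCs of the same number came from the same mouse, and their deviations correlated at 0.0229 to 0.102. The fits were run on simulated counts in which only genes with many reads were changed. Loss of a gene from a whole library was not simulated, so that run does not bear on genes at 0 in some sorted libraries.

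The 7 genes and the gene lists were chosen with earlier results of these data known. By rule the text could name, per list, genes past the limma threshold for LFPI over sham, of which there were none. It could also name the 4 of smallest p in each untreated comparison with whole DG, and the 3 genes most like each of the 7. Other list genes named for LFPI responses were chosen after their values were seen. Some genes that the rule names are not reported here.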

Additional observations from a re-analysis of the deposited data

Results flagged for a closer look

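In 5 of the genes 1 library stood far from the others of its group, among 11 groups of untreated sorted libraries that could be looked at. For normally distributed values chance gives about 1 in 20. Where most libraries are at 0, as for Vgf and Nptx2, any lone library above 0 stands apart, and that rate does not apply. In IPCs, Bdnf was at 446 normalized counts in mouse 2 technical replicate 2 (next highest 128), Ntf3 at 343 in mouse 1 technical replicate 3 (next 167) and Ntrk3 at 852 in mouse 3 technical replicate 1 (next 350). In NSCs, Nptx2 was at 156 in mouse 3 technical replicate 1 (next 9.66), and Vgf at 1.04, which is 1 read, in mouse 2 technical replicate 2, with 0 in the others. The replicates are libraries of the same mouse.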

How the results depend on the processing

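The 74 tests of the 7 genes gave 993 alternative values, of which 911 kept direction and side of the threshold. The 15 calls never reversed, and 185 of their 196 alternative values also passed. Counts over all genes moved more. With CLEAR genes only, 3538 genes passed between untreated NSCs and whole DG and 2582 between IPCs and whole DG. Between untreated NSCs and IPCs (346 genes) 188 passed without a trend, 1396 with DESeq2, 2 with the spread of these groups alone, 663 without technical replicate 2 of IPC mouse 2, 0 with the mouse as a replicate block and 193 to 554 without 1 mouse. After LFPI, where limma called 0, no trend gave 29 in NSCs and 38 in IPCs, DESeq2 254, 105 and in whole DG 682, and one spread over 6 groups 32, 77 and 1. In whole DG no filter gave 3, and CLEAR genes only gave the same 3 because it is the same fit there, and leaving out 1 mouse 0 to 1334, the 1334 without sham mouse 10. For whole DG minus NSC responses (86) pseudocount 10 gave 54 and leaving out 1 mouse 31 to 648. For whole DG minus IPC responses (61) these were 15 and 1 to 263, and for NSC minus IPC responses leaving out 1 mouse gave 0 to 1. Between sham NSCs and IPCs (14) pseudocount 10 gave 0, edgeR 3, the replicate block 0 and leaving out 1 mouse 108 to 346. The causes were not tested. The block changed no other call.

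Reversed values, none of them called, were for Ntrk2 after LFPI in IPCs (-0.09 with edgeR and with DESeq2), Ntf3 in whole DG minus NSC (-0.31 with pseudocount 10, -0.97 with edgeR), Vgf (0.61 with pseudocount 10) and Ntf3 (-0.22 with edgeR) in whole DG minus IPC, Vgf in NSC minus IPC (-1.32 with edgeR) and Ntf3 between sham NSCs and IPCs (-0.70 with the replicate block). Leaving out 1 mouse gave, as log2 ranges, between untreated NSCs and IPCs -2.22 to 0.68 for Nptx2, -0.41 to 0.13 for Ntrk3 and -0.12 to 0.46 for Ntrk2. After LFPI in NSCs it gave -1.96 to 3.59 for Nptx2, -3.44 to 0.10 for Ntf3 and -0.15 to 0.37 for Ntrk2, and in IPCs -0.20 to 0.51 for Ntrk2. Responses of whole DG minus NSC were -1.11 to 4.44 for Nptx2, -1.52 to 2.02 for Ntf3 and -0.02 to 0.50 for Ntrk2. Responses of whole DG minus IPC were -0.80 to 0.14 for Bdnf, -0.96 to 1.06 for Vgf, -0.29 to 3.35 for Ntf3, -0.33 to 0.01 for Ntrk3 and -0.16 to 0.55 for Ntrk2. NSC minus IPC responses were -1.02 to 2.72 for Ntf3 and -0.40 to 0.32 for Ntrk2. In sham mice they were -0.39 to 3.31 for Ngfr in NSCs over whole DG, and -4.06 to 1.49 for Nptx2 and -0.70 to 2.94 for Ntf3 in NSCs over IPCs. Bdnf, Ntf3, Ngfr, Vgf and Nptx2 were at 0 in some sorted libraries, which limits what can be read from them.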
